A study of Mus musculus with 15 samples.

Results

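Primitive endoderm genes were followed in mouse embryonic stem cells (ESCs) as they lost OCT4, the pluripotency factor made from *Pou5f1*. The 9 genes, taken from a list of known primitive endoderm genes, were *Gata6*, *Gata4*, *Sox17*, *Sox7*, *Pdgfra*, *Dab2*, *Foxa2*, *Sparc* and *Cubn*, out of 48709 genes counted. RNA-seq read counts of 15 libraries were used. CreER ESCs, of mixed 129SV and C57BL/6 strain, carry 1 floxed and 1 null *Pou5f1* allele and a CreER recombinase under the CAG promoter. Addition of 500 nM 4-OHT lets the recombinase delete the floxed allele, and 2 libraries were made at each of 0, 12, 18, 24 and 36 h. O4AID ESCs, of strain 129SV, lack endogenous *Oct4* and carry a Tet-OFF wild-type *Oct4* transgene, which doxycycline keeps silent. They live on an OCT4 fused to an auxin-inducible degron, and this fusion and the Tir1 protein are both driven by CAG. In these cells 500 µM of the auxin IAA sends the fusion protein to degradation, and single libraries cover 0, 1.5, 6, 10 and 24 h. All libraries were labelled with 1 medium, N2B27 with the MEK inhibitor PD03, the GSK3 inhibitor Chiron and LIF, so by the labels treated and untreated cells alike had MEK inhibited. Untreated libraries exist at 0 h only, so OCT4 loss, the added drug and time in culture cannot be told apart. The study gave IAA to control ESCs with a degron-tagged eGFP, but those cells are not among these libraries.

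The primitive endoderm is the extraembryonic layer that separates from the pluripotent epiblast in the late blastocyst and later forms the parietal and visceral endoderm of the yolk sacs. FGF4 from epiblast cells signals through FGF receptors and the MEK-ERK cascade to promote *Gata6* expression. GATA and SOX factors then drive the later genes of the layer. ESCs kept with a MEK inhibitor normally hold these genes low, and forced expression of GATA6 or GATA4 converts ESCs to extraembryonic endoderm.

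The CreER libraries held 21.7 to 30.8 M counted reads and the O4AID libraries 40.5 to 48.7 M (M, mega). Levels are given as CPM, counts scaled to the effective library size by TMM over the 15 libraries. Each CreER time was tested against 0 h with edgeR over 18969 genes, and calls were made where the adjusted p was under 0.05. The labels do not say that the 2 libraries of a time came from separate cultures, so these p-values measure a spread that may be technical. O4AID has no replicates and was not tested. There a gene was called where it stood at least 2-fold from 0 h with its 95% counting interval away from 1, among genes with at least 20 counts over the 2 libraries compared. Such a call speaks of the 2 libraries and covers counting error alone. *Pou5f1* fell in CreER from 324 and 317 CPM at 0 h to 112 and 124 CPM after 36 h. In O4AID, where the protein and not the mRNA is the target, it went from 756 to 637 CPM after 24 h. A single annotated ribosomal RNA gene took 0.005% to 0.446% of the reads, with the highest shares of both lines at 0 h. Other ribosomal RNA genes were not summed, and the part of such reads in the results was not tested.

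As *Pou5f1* was deleted in CreER, *Gata6*, *Dab2* and *Sparc* rose, *Sox7* fell, and the other 4 tested members did not pass after 36 h. At 12 h, 0 of 8 tested members were called by edgeR in either direction, against 0.258% of all tested genes higher and 0.137% lower. By DESeq2 the count was also 0, and 3 members had an unadjusted edgeR p under 0.05. At 18 h, 2 members were higher (4.73% of all genes) and 1 was lower (3.79%). At 24 h, 3 were higher (11.0%) and 0 lower (10.6%), and after 36 h, 3 were higher (19.4%) and 1 lower (17.2%). The median log2 change of the 8 members was 0.04, 0.16, 0.27 and 0.53 in order of time, and that of all genes after 36 h was 0.01. The 18 h count was the least firm of these, since 0 members stayed higher without replicate 2 of 0 h or without replicate 1 of 18 h.

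In O4AID, *Gata6*, *Sox17*, *Pdgfra*, *Dab2* and *Foxa2* were called higher after IAA and no member was called lower. At 1.5 h, 0 of 7 members with enough counts were called, against 1.09% of all genes higher and 1.29% lower. At 6 h, 3 of 8 were higher, namely *Pdgfra*, *Dab2* and *Foxa2* (2.52% of all genes), and 0 were lower (2.41%). At 10 h, 4 of 6 were higher, namely *Gata6*, *Sox17*, *Pdgfra* and *Dab2* (4.23%), and 0 were lower (3.01%). Under the count minimum at 10 h, *Cubn* stood at -1.72 (-3.77 to -0.07) and *Foxa2* at 0.92 (-0.68 to 2.67) on the log2 scale. Neither gene is in the 10 h count or in the 10 h median below. At 24 h, 5 of 8 were higher, the same 4 genes with *Foxa2* (9.34%), and 0 were lower (6.62%). The median log2 change of the members was 0.09, 0.99, 1.54 and 1.80 in order of time, and that of all genes after 24 h was -0.01. Part of this rested on small counts. With 1 CPM added to each level, 1 member was higher after 6 h and 3 after 24 h, and with the 1.5 h library as the reference, 1 was higher after 6 h. Total-count scaling raised the 6 h number to 5, with *Gata6* at 1.04 and *Sox17* at 1.07 on the log2 scale. Whether the 2 lines differed in their response was not tested, because O4AID has 1 library at each time.

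**Figure D1:**
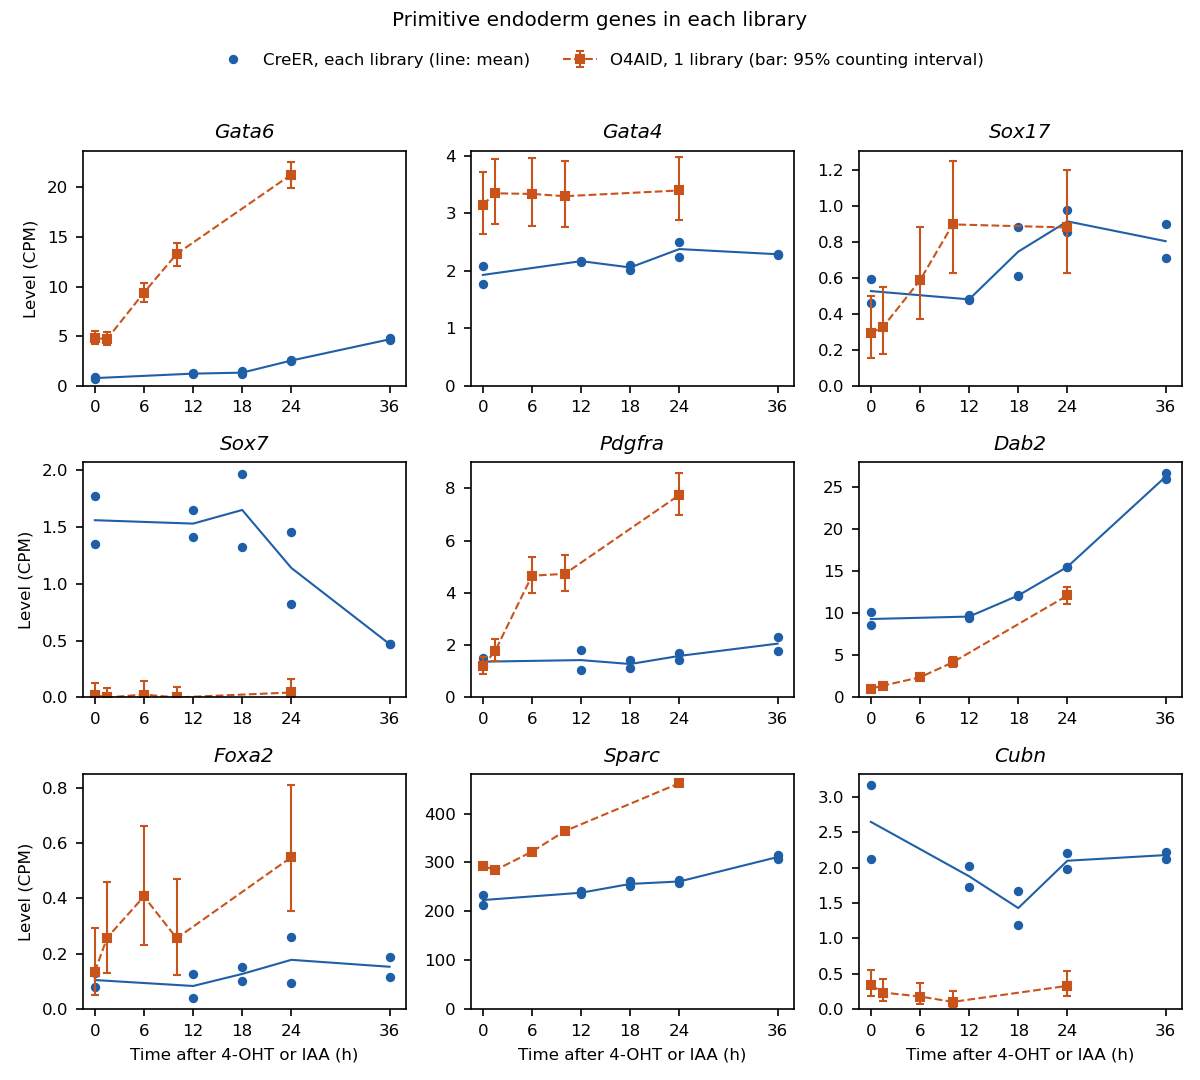
Level of each primitive endoderm gene (CPM, linear axis from 0, a scale of its own for each gene) against hours after 4-OHT in CreER or IAA in O4AID. Circles are single CreER libraries with a line through their means, and squares are single O4AID libraries with 95% counting intervals; *Gata6* reached 4.80 and 4.59 CPM after 36 h in CreER and 21.3 CPM after 24 h in O4AID, while *Gata4* stayed between 1.78 and 3.40 CPM throughout.

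*Gata6*, the zinc-finger factor that starts the primitive endoderm programme, rose in both lines. The gene (ENSMUSG00000005836) spans 11052510 to 11085635 of chromosome 18, plus strand, in GRCm38/mm10, the build of all coordinates given. In CreER its level was 0.866 and 0.693 CPM at 0 h, 1.20 and 1.25 after 12 h, 1.48 and 1.19 after 18 h, 2.59 and 2.51 after 24 h, and 4.80 and 4.59 after 36 h. The treated libraries all lay above both untreated ones, and the 12 h and 18 h libraries overlapped each other. The log2 change of *Gata6* by edgeR was 1.73 after 24 h (SE 0.226, adjusted p 1.9e-06) and 2.61 after 36 h (SE 0.207, adjusted p 6.91e-11), while 0.67 after 12 h and 0.78 after 18 h did not pass (adjusted p 0.445 and 0.0612). In O4AID *Gata6* stood at 4.79 CPM at 0 h and 4.73 after 1.5 h, then 9.40 after 6 h, 13.3 after 10 h and 21.3 after 24 h. The first 2 of these intervals overlap and each later library lay above the one before. Its log2 change was 0.97 after 6 h (95% counting interval 0.72 to 1.22), short of 2-fold, 1.47 after 10 h (1.23 to 1.70) and 2.15 after 24 h (1.93 to 2.37). An antisense transcript, *1010001N08Rik*, overlaps its exons and held at most 6 counts in a library.

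*Gata4*, the GATA factor that follows *Gata6* in the same lineage, did not pass in either line. The gene (ENSMUSG00000021944) spans 63198922 to 63271692 of chromosome 14, minus strand. Its CreER levels were 2.09 and 1.78 CPM at 0 h, 2.15 and 2.18 after 12 h, 2.01 and 2.1 after 18 h, 2.24 and 2.51 after 24 h, and 2.30 and 2.27 after 36 h. In O4AID it was 3.15 CPM at 0 h, 3.35 after 1.5 h, 3.34 after 6 h, 3.30 after 10 h and 3.40 after 24 h, with intervals that all overlap. Its log2 change was 0.26 after 36 h in CreER (SE 0.196, edgeR adjusted p 0.323) and 0.11 after 24 h in O4AID (-0.23 to 0.45). Thus at the last time of each line *Gata6* was called and *Gata4* was not.

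The SOX factors of group F, *Sox17* and *Sox7*, bind the same kind of site and mark successive steps of primitive endoderm formation. *Sox17* (chromosome 1, 4490931 to 4497354, minus strand, ENSMUSG00000025902) was low everywhere, with 12 to 27 counts in a CreER library and 13 to 40 in an O4AID library. Its CreER levels were 0.591 and 0.462 CPM at 0 h, 0.475 and 0.484 after 12 h, 0.607 and 0.882 after 18 h, 0.853 and 0.974 after 24 h, and 0.897 and 0.709 after 36 h. All libraries from 18 h on lay above those at 0 h, but the log2 change missed the threshold after 24 h (0.81, SE 0.33, edgeR adjusted p 0.0828) and after 36 h (0.64, SE 0.353, adjusted p 0.162). In O4AID *Sox17* went from 0.293 CPM at 0 h and 0.328 after 1.5 h to 0.586 after 6 h, 0.896 after 10 h and 0.879 after 24 h. The 10 h and 24 h values were 1.61 (0.66 to 2.66) and 1.59 (0.65 to 2.61) on the log2 scale and both were called, and with 1 CPM added they were 0.55 and 0.54, under 2-fold.

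*Sox7* was the member called lower after 36 h in CreER. It lies on chromosome 14 from 63943674 to 63950732 (plus strand, ENSMUSG00000063060). CreER levels of *Sox7* were 1.77 and 1.35 CPM at 0 h, 1.65 and 1.41 after 12 h, 1.97 and 1.32 after 18 h, 0.821 and 1.46 after 24 h, and 0.468 and 0.473 after 36 h. The libraries up to 24 h overlapped, and both 36 h libraries lay below all the others. The log2 change of *Sox7* was -0.46 after 24 h (SE 0.273, edgeR adjusted p 0.25) and -1.70 after 36 h (SE 0.351, adjusted p 0.000339), and without any 1 library the 36 h value ran from -1.89 to -1.51 and stayed called. In O4AID *Sox7* held 1, 0, 1, 0 and 2 counts in order of time, at or under a floor of 3 counts, so no fold is given. Of the 2 SOX genes, *Sox7* passed the test in CreER and *Sox17* did not, and the difference between them was not tested.

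*Foxa2*, a forkhead factor of visceral and definitive endoderm, was barely detected. Its position is chromosome 2 from 148042877 to 148046969 (minus strand, ENSMUSG00000037025). With 1 to 7 counts in each CreER library it was too low to be tested there, at 0.0787 and 0.132 CPM at 0 h and 0.117 and 0.189 CPM after 36 h. In O4AID it held 6 counts at 0 h, 11 after 1.5 h, 16 after 6 h, 10 after 10 h and 25 after 24 h, or 0.135, 0.258, 0.407, 0.256 and 0.549 CPM. The 24 h value was 2.02 on the log2 scale against 0 h, with a wide interval of 0.70 to 3.60, and that after 6 h was 1.59 (0.17 to 3.23). With 1 CPM added they were 0.45 and 0.31. A change of *Foxa2* in CreER was not detectable at this depth.

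*Pdgfra* encodes a PDGF receptor of the primitive endoderm and its first surface marker, and it lies on chromosome 5 from 75152292 to 75198215 (plus strand, ENSMUSG00000029231). In CreER it stood at 1.22 and 1.52 CPM at 0 h, 1.05 and 1.81 after 12 h, 1.44 and 1.12 after 18 h, 1.45 and 1.72 after 24 h, and 1.79 and 2.32 after 36 h. The 36 h libraries were above those at 0 h, yet the log2 change of 0.57 did not pass (SE 0.254, edgeR adjusted p 0.0813). In O4AID *Pdgfra* began at nearly the same level, 1.19 CPM at 0 h, and was 1.78 after 1.5 h, 4.66 after 6 h, 4.73 after 10 h and 7.75 after 24 h. Its log2 change there was 0.58 after 1.5 h (0.05 to 1.11), 1.97 after 6 h (1.52 to 2.44), 1.99 after 10 h (1.54 to 2.46) and 2.70 after 24 h (2.28 to 3.15). The 6 h and 10 h libraries did not differ beyond counting error, while the level rose beyond counting error between 1.5 and 6 h and again between 10 and 24 h. With the 1.5 h library as the reference, *Pdgfra* was the 1 member still called after 6 h.

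*Dab2* encodes an endocytic adaptor that sorts cargo receptors in the primitive endoderm, and it rose in both lines. Its locus is chromosome 15 from 6299788 to 6440712 (plus strand, ENSMUSG00000022150). Its CreER levels were 10.1 and 8.54 CPM at 0 h, 9.41 and 9.80 after 12 h, 12.2 and 12.0 after 18 h, 15.5 and 15.5 after 24 h, and 26.6 and 25.9 after 36 h. The 12 h libraries lay between the untreated ones, and from 18 h on each time lay above the time before. The log2 change of *Dab2* by edgeR was 0.39 after 18 h (SE 0.092, adjusted p 0.00656), 0.75 after 24 h (SE 0.0879, adjusted p 3.1e-07) and 1.51 after 36 h (SE 0.084, adjusted p 5.04e-14). When replicate 2 of 0 h was left out, its value for 18 h became 0.28 (adjusted p 0.168), and without replicate 1 of 18 h it was 0.39 (adjusted p 0.0656). In O4AID *Dab2* went from 1.04 CPM at 0 h and 1.41 after 1.5 h to 2.39 after 6 h, 4.17 after 10 h and 12.1 after 24 h. The 11.6-fold rise, 3.54 on the log2 scale (3.11 to 4.01), had the highest value of the 8 members with enough counts, although its interval overlaps those of *Pdgfra* and *Foxa2*, and the 24 h level was still below that of CreER after 24 h.

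*Cubn* encodes cubilin, an endocytic receptor of yolk sac endoderm that works with the products of *Amn* and *Lrp2* and is sorted by DAB2, and it did not move with *Dab2*. It lies on chromosome 2 from 13276338 to 13491813 (minus strand, ENSMUSG00000026726). CreER levels of *Cubn* were 2.13 and 3.17 CPM at 0 h, 2.03 and 1.73 after 12 h, 1.67 and 1.19 after 18 h, 2.21 and 1.99 after 24 h, and 2.22 and 2.13 after 36 h. It was lower after 18 h alone, by -0.91 on the log2 scale (SE 0.222, edgeR adjusted p 0.00906), and after 36 h the value was -0.29 (SE 0.211, adjusted p 0.311). The 18 h call was lost without replicate 2 of 0 h, the highest *Cubn* library (-0.57, adjusted p 0.276), without replicate 2 of 18 h (-0.68, adjusted p 0.179), and under DESeq2, which gave -0.90 with no adjusted p. In O4AID *Cubn* held 15, 10, 7, 4 and 15 counts in order of time, and the 24 h change was -0.04 (-1.17 to 1.10).

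*Sparc* encodes a calcium-binding matrix glycoprotein that parietal endoderm secretes in large amounts, and ESCs already express it. It lies on chromosome 11 from 55394500 to 55420080 (minus strand, ENSMUSG00000018593). In CreER it rose from 234 and 213 CPM at 0 h through 241 and 235 after 12 h, 261 and 252 after 18 h and 257 and 265 after 24 h to 307 and 316 after 36 h. The 18 h and 24 h libraries overlapped, and the 36 h libraries lay above the rest. The log2 change of *Sparc* by edgeR was small with small errors, 0.21 after 18 h (SE 0.0433, adjusted p 0.00272), 0.24 after 24 h (SE 0.0433, adjusted p 0.000207) and 0.49 after 36 h (SE 0.0434, adjusted p 5.56e-10). The 18 h call was lost without replicate 2 of 0 h (0.14, adjusted p 0.0843) or replicate 1 of 18 h (0.18, adjusted p 0.0807). In O4AID *Sparc* stood at 293, 284, 322, 364 and 462 CPM in order of time. Its change after 24 h, 0.66 on the log2 scale (0.63 to 0.69), was outside counting error but under 2-fold and so was not called.

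**Figure D2:**
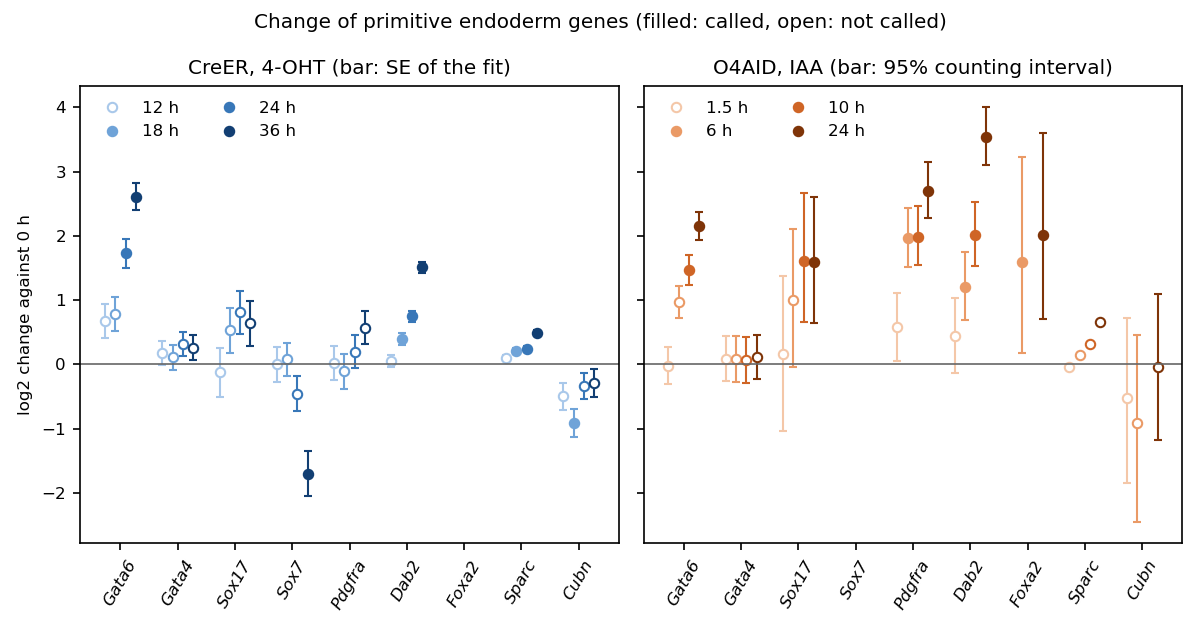
Log2 change of each member against 0 h in CreER (left, bars are the SE of the edgeR fit) and O4AID (right, bars are 95% counting intervals), with darker points for later times. Filled points were called and open points were not; in CreER *Gata6* at 2.61 and *Sox7* at -1.70 mark the extremes after 36 h, and in O4AID no member was called lower.

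Levels can be set side by side between genes when divided by exon length. On CPM per kb, *Sparc* was the most abundant member in untreated CreER at 66.3, then *Dab2* at 1.27, *Gata4* at 0.495, *Sox7* at 0.474, *Gata6* at 0.244, *Cubn* at 0.177, *Pdgfra* at 0.137, *Sox17* at 0.11 and *Foxa2* at 0.0445. Some neighbours in that order had overlapping replicates and could not be ranked, namely *Gata4* and *Sox7*, *Cubn* and *Pdgfra*, and *Pdgfra* and *Sox17*. By 36 h *Gata6* stood at 1.47 CPM per kb, between *Dab2* at 3.57 and *Gata4* at 0.585, and *Sox7* was at 0.143. In O4AID after 24 h *Gata6* was second at 6.66 CPM per kb, after *Sparc* at 137 and before *Dab2* at 1.64, *Gata4* at 0.872 and *Pdgfra* at 0.773, and the counting intervals of the last pair overlap. *Sox17* was at 0.168 CPM per kb in CreER after 36 h, and in O4AID it was at 0.0613 untreated and 0.184 after 24 h.

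The lines already differed in these genes before treatment, at levels that can be read side by side but were not tested. *Gata6* was 6.15-fold higher in the untreated O4AID library than in the mean of the 2 untreated CreER libraries, and *Gata4* was 1.63-fold higher. In the other direction, untreated CreER was 8.99-fold higher for *Dab2* and 7.84-fold higher for *Cubn*, and *Sox7* had 45 and 41 counts in CreER against 1 in O4AID. *Pdgfra* at 1.22 and 1.52 CPM in CreER against 1.19 in O4AID, and *Sparc* at 234 and 213 against 293, were closer. *Gata6* after 36 h of 4-OHT, at 4.80 and 4.59 CPM, was thus at the level that untreated O4AID cells already had. Line, strain, genotype and the way the *Oct4* gene is supplied cannot be told apart in these values. The labels give both lines the same medium, but the study moved CreER-type cells into medium with serum and LIF when it added 4-OHT in other assays, and whether the media of these libraries differed was not tested. *Gata4* and *Sox7* both lie on chromosome 14, whose median gene was at -0.27 (log2, O4AID over CreER at 0 h, 474 genes), against a range of -0.42 to 0.35 over the autosomes.

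**Figure D3:**
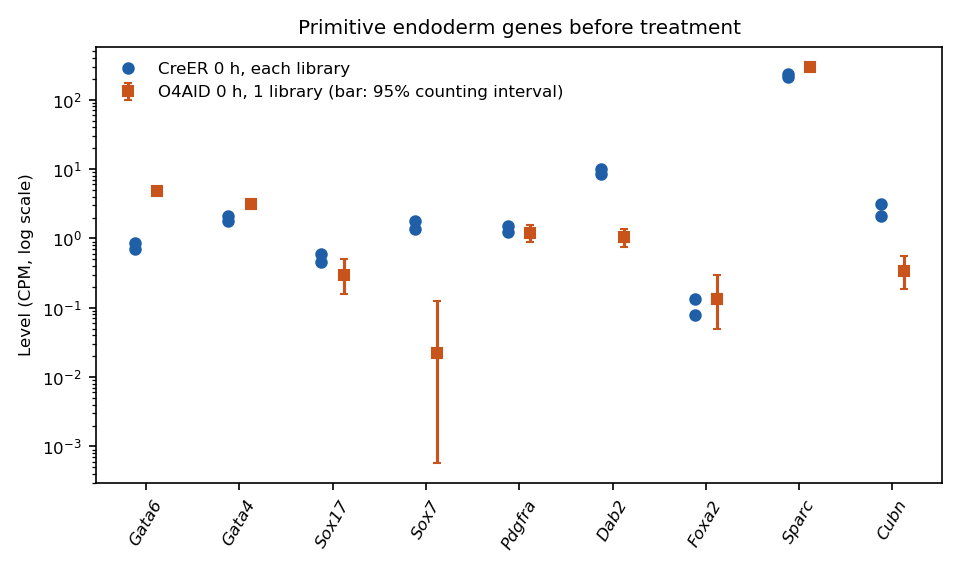
Level of each member before treatment (CPM, log axis) in the 2 untreated CreER libraries (circles) and the untreated O4AID library (squares with 95% counting intervals). *Gata6* was higher in O4AID at 4.79 CPM, *Dab2*, *Cubn* and *Sox7* were higher in CreER, and *Pdgfra* was at 1.22 and 1.52 CPM in CreER and 1.19 CPM in O4AID.

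Genes of the FGF and PDGF signals were read because they act upstream of *Gata6* and *Pdgfra*. Although the labels give a MEK inhibitor to all libraries, some ERK-responsive genes stood far apart between the untreated lines. *Spry4*, an inhibitor of the pathway that ERK induces, was at 197 and 187 CPM in CreER and 1.94 in O4AID, and *Dusp6*, an ERK phosphatase, was at 130.0 and 131 against 7.81. *Egr1*, an immediate early factor, was at 6.77 and 6.17 against 0.18 CPM. Other ERK-linked genes of the list were closer or went the other way. *Etv4* was at 63.7 and 58.4 CPM in CreER and 58.9 in O4AID, and *Etv5* at 351 and 336 against 592. *Spry2* was at 89.4 and 89.7 CPM against 60.2, and *Spred1* at 114 and 121 against 59.4. *Pdgfb* was at 7.87 and 7.49 CPM against 0.18, whereas *Pdgfc* was at 4.53 and 3.13 CPM against 43.0. What sets these levels, and their part in the members' values, was not tested.

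Of the 14 genes of this signal list, 4 rose and 8 fell in CreER after 36 h, with a median log2 change of -0.31. For this list and those below, the shares of all tested genes were 19.4% higher and 17.2% lower in CreER after 36 h. In O4AID after 24 h they were 9.34% higher and 6.62% lower. *Fgfr2* (1.18), *Pdgfb* (1.01), *Pdgfa* (0.89) and *Fgfr1* (0.44) rose. *Fgf4*, the epiblast ligand, fell by 0.73 on the log2 scale with adjusted p 3.21e-13, and *Egr1* (-1.04), *Pdgfc* (-0.74) and *Etv5* (-0.57) also fell. *Spry4* fell by 0.35 and *Dusp6*, at -0.05, did not pass. In O4AID after 24 h, 2 of 13 genes were called higher, *Fgfr2* (1.02) and *Pdgfb* (2.32), and 7 lower, with *Fgf4* at -3.14 and *Pdgfa*, a ligand of the PDGFRA receptor, at -1.38. *Fgfr2* and *Pdgfb* were thus higher and *Fgf4* lower in both lines, while *Pdgfa* was called higher in CreER after 36 h and lower in O4AID after 24 h, a difference that was not tested.

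Other genes of primitive endoderm and of its cell line form, XEN cells, were read next. In CreER 9 of the 12 tested, of 16 listed, were higher after 36 h (19.4% of all genes) and 0 lower (17.2%). Their median log2 change was 0.76. At 12, 18 and 24 h, 0, 4 and 8 were higher, against 0.258%, 4.73% and 11.0% of all genes. *Pth1r*, a parathyroid hormone receptor of parietal endoderm, went from 2.76 and 2.08 CPM at 0 h to 17.5 and 16.8 after 36 h, a log2 change of 2.85 (adjusted p 9.89e-16). *Amn*, which encodes the membrane partner of cubilin, rose by 1.71, *Cited1*, a transcriptional co-regulator, by 1.42 and *Fgfr2* by 1.18. *Lrp2*, which encodes megalin, rose by 0.61. In O4AID 8 of 13 were called higher after 24 h (9.34% of all genes) and 2 lower (6.62%), with a median of 1.17. *Pth1r* (3.21), the Hedgehog ligand gene *Ihh* (2.96), the tight junction gene *Cldn6* (2.57), the nuclear receptor gene *Hnf4a* (2.53) and the retinol transporter gene *Stra6* (1.95) were among those higher, and the activin antagonist gene *Fst* (-2.57) and *Apoe* (-1.15) were lower. Of the partners of *Cubn* in O4AID, *Lrp2* was called after 24 h (1.17), and *Amn* was called after 10 h (2.30, interval 1.23 to 3.53) but stood at 0.25 after 24 h (-1.15 to 1.70).

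Genes of the daughter layers were counted apart, and the difference between the layers was not tested. These counts depend on how genes were assigned to lists. *Pth1r* counted among both the XEN and the parietal genes. *Amn* and *Lrp2*, the partners of the yolk sac receptor gene *Cubn*, counted with the XEN genes and not with the visceral ones. Among parietal endoderm genes, 6 of 7 rose (19.4% of all genes) and 1 fell (17.2%) in CreER after 36 h. In O4AID after 24 h, 5 of 7 were higher (9.34%) and 1 lower (6.62%). Besides *Pth1r*, the plasminogen activator gene *Plat* rose by 1.20 in CreER, the repressor gene *Snai1* by 0.84 and the keratin gene *Krt19* by 0.64, and the follistatin-like gene *Fstl1* fell by 0.59. The call of *Snai1* was lost without replicate 2 of 0 h or replicate 1 of 36 h. Among visceral endoderm genes, 1 of 7 tested, of 11 listed, was higher (19.4% of all genes) and 2 lower (17.2%) in CreER after 36 h. *Otx2* fell by 1.14 and *Lefty1* by 0.83, and both are also expressed by ESCs. The 1 that rose was *Dkk1*, a secreted Wnt inhibitor of anterior visceral endoderm, which was at 0.709 and 0.495 CPM at 0 h and 0.897 and 1.75 CPM after 36 h (log2 change 1.12, edgeR adjusted p 0.0103). In O4AID *Dkk1* held 15, 9, 10, 5 and 366 counts in order of time, a log2 change of 4.57 after 24 h (3.83 to 5.43). The CreER call of *Dkk1* was lost without replicate 2 of 36 h (0.60, adjusted p 0.298), without replicate 2 of 0 h (0.87, adjusted p 0.116) and under DESeq2 (adjusted p 0.0654). The defining visceral genes *Ttr*, *Afp* and *Cer1* had at most 2 counts in any untreated library and were not tested in CreER after 36 h. The summed level of the 11 visceral genes was 71.3 to 73.7 CPM at 0 h and 40.0 to 40.9 CPM after 36 h in CreER. Mean *Otx2* was 33.8 and 15.2 CPM at these times and mean *Lefty1* was 31.2 and 17.4 CPM. These ESC-expressed genes thus made most of the CreER sum and of its fall. In O4AID the sum was 15.2 and 17.1 CPM at 0 and 24 h, and *Dkk1* made 0.338 and 8.04 CPM of it.

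Basement membrane genes, which the primitive endoderm expresses along with *Sparc*, moved both ways. In CreER 7 of 11 rose (19.4% of all genes) and 3 fell (17.2%) after 36 h. The collagen chaperone gene *Serpinh1* (1.19), the type IV collagen genes *Col4a1* (1.09) and *Col4a2* (0.98) and the perlecan gene *Hspg2* (0.69) rose, while the nidogen gene *Nid2* (-0.53) and the laminin genes *Lama1* (-0.40) and *Lamc1* (-0.23) fell. In O4AID after 24 h 3 were higher, *Col4a1* (1.55), *Col4a2* (1.71) and the laminin gene *Lamb1* (1.30), and 1 was lower, the nidogen gene *Nid1* (-1.15). *Hspg2* was at 0.00 there (-0.03 to 0.04). The type IV collagens were therefore called higher in both lines and *Lama1* was not called higher in either.

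Markers of other cells that share these genes were read beside them. Of all tested genes, 19.4% were higher and 17.2% lower in CreER after 36 h. In O4AID after 24 h, 9.34% were higher and 6.62% lower. All 5 trophectoderm genes of the study rose in CreER after 36 h, led by *Hand1* (2.71) and *Cdx2* (2.43), and all 5 were called higher in O4AID after 24 h. That list was taken from the genes the study named in describing these samples, so its direction is not independent evidence. Its summed level went from 26.1 to 28.4 CPM at 0 h to 105 to 108 CPM after 36 h in CreER and from 3.06 to 16.8 CPM in O4AID, along with the members. *Krt19* and *Cldn6* are examples of genes that trophoblast expresses too. The members and the other listed genes were not sorted by such overlap, so more of them may be shared. Of definitive endoderm and mesendoderm genes, 3 of 7 rose and 1 fell in CreER after 36 h, with *Eomes* at 1.69 and *Cxcr4* at 0.46, and in O4AID after 24 h 1 of 6 was higher and 1 lower. The call of *Cxcr4* was lost under DESeq2 (adjusted p 0.177) and with total-count scaling (adjusted p 0.083). *Eomes* is a trophoblast gene too, and the study's introduction names it as a marker, but it was not in the list of 5. In O4AID after 24 h *Eomes* stood at 0.08 (-0.13 to 0.29) and was not called. Of fibroblast genes, 1 of 6 rose in CreER after 36 h, their summed level was 9.44 to 10.4 CPM at 0 h and 11.2 to 11.9 CPM after 36 h, and in O4AID it was 40.9 to 57.8 CPM with 2 to 4 of 8 genes at 0 and *Pdgfrb* alone at 39.6 CPM in the untreated library. Of ESC genes, 2 of 8 rose and 4 fell in CreER after 36 h, with a summed level of 2020 to 2210 CPM at all times, whereas 7 of 8 were lower in O4AID after 24 h and the sum went from 4520 to 1390 CPM. In bulk RNA, more cells of a type and more RNA in each cell cannot be told apart, and the part of each cell type in the members' values was not tested.

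**Figure D4:**
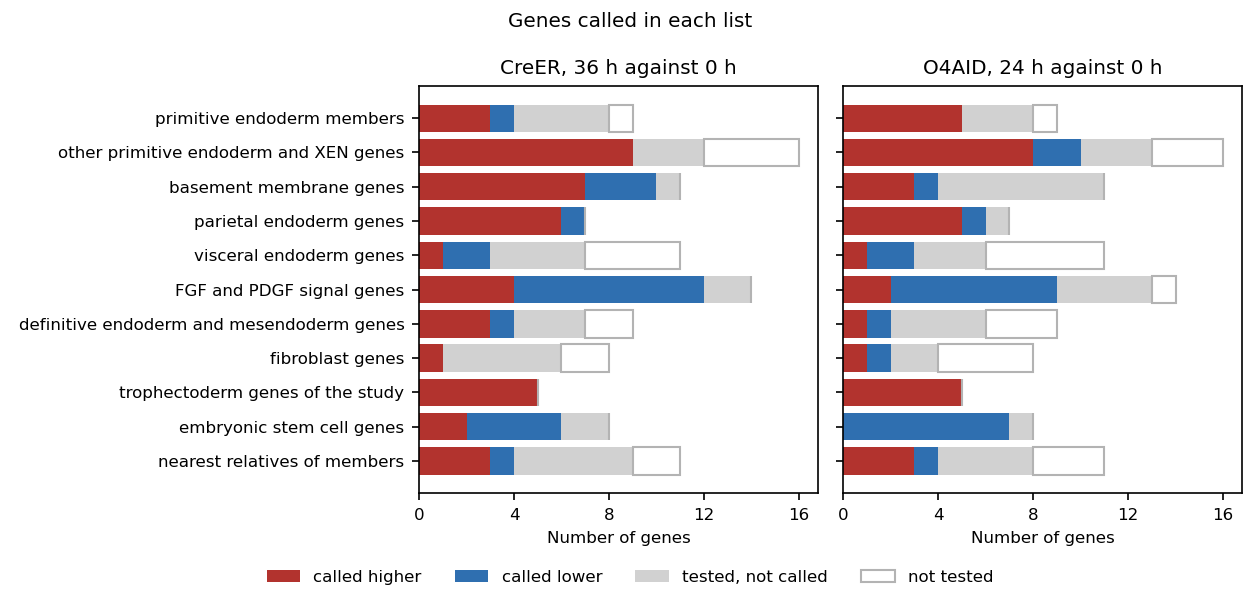
Number of genes in each list that were called higher, called lower, tested but not called, or not tested, in CreER after 36 h (left, edgeR) and O4AID after 24 h (right, at least 2-fold with the counting interval away from 1). Other primitive endoderm and XEN genes show 9 higher and 0 lower in CreER and 8 higher and 2 lower in O4AID, while visceral endoderm genes show 1 higher and 2 lower in each. Of all tested genes, 19.4% were higher and 17.2% lower in CreER, and 9.34% and 6.62% in O4AID.

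The members' patterns over time were set against each other and against the other genes, with each line centred on its own mean so that the difference between lines dropped out. The measure was Pearson's r of log2(CPM + 1) over the 15 libraries, which share time, line and processing, and it is a description. *Gata6*, *Dab2* and *Sparc* ran closely together, with r = 0.955 for *Gata6* and *Dab2* (Spearman's rho 0.946), 0.954 for *Gata6* and *Sparc* (rho 0.939) and 0.976 for *Dab2* and *Sparc* (rho 0.964). *Pdgfra* was less alike, at 0.785 with *Gata6* and 0.821 with *Dab2*, and *Sox17* stood at 0.789 with *Gata6*. For *Cubn* and *Dab2* r was 0.0128 (rho -0.0536), and for *Sox7* and *Gata6* it was -0.615 (rho -0.384). *Sox7* was under the floor of 3 counts in every O4AID library, so its pattern comes from CreER alone. Among 14074 genes with a mean of at least 50 counts, the 3 most like *Gata6* were *Scly* (0.988), *Chpt1* (0.987) and *Cyb5b* (0.985), and those most like *Dab2* were *Clcn5* (0.994), *App* (0.988) and *Kif26a* (0.987). For *Sparc* they were *Cln6* (0.984), *Kif26a* (0.983) and *Tagln2* (0.982), and for *Pdgfra* they were *Zfp703* (0.954), *Procr* (0.947) and *Fhdc1* (0.943). Each of these genes was more like its member than any other member was. They were picked as the closest of 14074 genes, so this outcome is largely built into the choice. Close patterns thus also occur outside the members, and where a member ranks among all genes was not computed.

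The bases upstream of the annotated starts were read because several members rose together and GATA factors bind GATA sites. RefSeq start sites of GRCm38.p6 were matched for 5 of the 9 members, *Pdgfra*, *Dab2*, *Foxa2*, *Sparc* and *Cubn*, with 8 start sites in all. The 250 bases before each start were searched on both strands for GATAA, a core GATA site,. GATAA was present in 2 of the 8 regions, 1 of *Dab2* and 1 of *Foxa2*, against 22.6% of 32851 RefSeq regions of the same length. The regions of *Dab2* (chr15:6299539-6299788, plus strand, the outermost start), which rose in both lines, of *Pdgfra* (chr5:75152001-75152250, plus strand), which was called in O4AID, and of *Cubn* (chr2:13491877-13492126, minus strand), which rose in neither, are given 5′ to 3′ with GATAA in capitals. The other *Dab2* region (chr15:6386498-6386747, plus strand) and that of *Sparc*, which rose in CreER, held no GATAA and are not printed. A match or its absence says only whether these letters are in this window.
Dab2: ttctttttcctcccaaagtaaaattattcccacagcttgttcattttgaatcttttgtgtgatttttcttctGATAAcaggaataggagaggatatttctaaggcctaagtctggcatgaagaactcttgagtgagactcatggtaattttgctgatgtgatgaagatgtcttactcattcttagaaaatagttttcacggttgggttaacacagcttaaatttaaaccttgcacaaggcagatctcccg
Pdgfra: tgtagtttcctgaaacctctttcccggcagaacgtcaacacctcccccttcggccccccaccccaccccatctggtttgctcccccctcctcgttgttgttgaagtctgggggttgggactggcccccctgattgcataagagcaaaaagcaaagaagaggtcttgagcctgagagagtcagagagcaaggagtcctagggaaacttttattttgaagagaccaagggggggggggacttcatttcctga
Cubn: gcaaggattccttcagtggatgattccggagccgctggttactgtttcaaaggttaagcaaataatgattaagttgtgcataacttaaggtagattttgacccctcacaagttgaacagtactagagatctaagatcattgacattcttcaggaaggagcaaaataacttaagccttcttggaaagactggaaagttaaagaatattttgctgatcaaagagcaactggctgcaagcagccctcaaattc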

How the data were processed

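The authors depleted ribosomal RNA, made directional paired-end libraries, trimmed reads with Trim Galore 0.1.4, aligned them to GRCm38/mm10 with TopHat2 2.1.0 and counted them per gene with featureCounts 1.5.1 (Ensembl). Strand and multimapping settings were not given in the sources used here. The deposited files hold raw read counts per gene, and 92 spike-in entries with 0 reads were left out. A deposited TMM signal table was not used.

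Counts of the 10 CreER libraries were fitted with edgeR 4.0.16 in R 4.3.3 (quasi-likelihood test, TMM, filterByExpr, robust dispersion, prior count 0.125) with Benjamini-Hochberg adjustment over 18969 genes. The code was tested on simulated data. O4AID ratios have exact conditional binomial 95% intervals (SciPy 1.17.1), CPM levels have exact binomial intervals, and a count of 0 was set to 3. The study called genes with NOISeq-sim, which simulates replicates and was not run.

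The members, the 10 companion lists (93 genes) and the tests were chosen with earlier results of these data known. Named were the 9 members, *Pou5f1*, up to 4 genes in each direction of a list at CreER 36 h (adjusted p under 0.05, mean of at least 50 counts) and the 3 genes most like 4 members. Further list genes were named after their values were seen, namely those read in O4AID or beside a member, such as *Spry4*, *Dusp6*, *Lrp2*, *Ihh*, *Hnf4a*, *Stra6*, *Cldn6*, *Fst*, *Apoe*, *Lamb1*, *Nid1*, *Ttr*, *Afp*, *Cer1* and *Dkk1*. Replicate chi-square per degree of freedom was 3.02 to 7.00, so each library counted as 1 sample. Alternatives were DESeq2 1.42.0, other scalings and filters, 4-library fits, a replicate block and leaving out each library. A result on 1 list gene is not reported here.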

Additional observations from a re-analysis of the deposited data

How the results depend on the processing

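Of 509 values of single members under alternatives, 471 kept their direction and call, 14 lost the call, 4 gained it and 20 changed sign, none of which was called. Replicate numbers did not pair the CreER libraries (correlations of deviations between -0.021 and 0.05), and with the replicate block 89, 1677, 4139 and 7000 genes were called at 12, 18, 24 and 36 h and the same numbers of members as without it. DESeq2 called 989 genes at 18 h and 2595 at 24 h, and 0 members lower at 18 h. Without the low-count filter 222 genes were called at 12 h and the members' median was 0.01 at 12 h and 0.48 at 36 h. Total-count scaling gave medians of 0.00 at 12 h and 0.45 at 36 h, and moved the median of all genes in O4AID at 24 h from -0.007 to 0.099. Leaving out 1 library gave 8 to 218 genes called at 12 h, 582 to 2006 at 18 h and 2343 to 3703 at 24 h. The members' median then ran from -0.01 to 0.16 at 12 h, from 0.11 to 0.27 at 18 h and from 0.43 to 0.49 at 36 h, with 0 to 2 members higher and 0 to 1 lower at 18 h. The signs that changed in CreER were of values that were not called. At 12 h, leave-one-out values were -0.29 to 0.05 for *Sox17*, -0.19 to 0.19 for *Sox7*, -0.39 to 0.39 for *Pdgfra* (-0.02 with total-count scaling) and -0.06 to 0.17 for *Dab2*. At 18 h they were -0.01 to 0.21 for *Gata4*, -0.22 to 0.36 for *Sox7* and -0.29 to 0.07 for *Pdgfra*, and at 36 h -0.53 to 0.05 for *Cubn*.

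In O4AID the number of genes called at 1.5, 6, 10 and 24 h was 15, 166, 371 and 1211 with 1 CPM added, 48, 314, 596 and 1675 with at least 100 counts, and 859, 1791, 2601 and 5205 at 1.5-fold. Members higher at 6 h were 5 with total-count scaling and 1 with 1 CPM added or with the 1.5 h library as the reference, and at 24 h 3 with 1 CPM added or at least 100 counts. The members' median with 1 CPM added was 0.93 at 10 h and 0.60 at 24 h. Signs changed for *Gata6* at 1.5 h (0.03 with total-count scaling, 0.00 with TMM over O4AID alone) and *Sparc* at 1.5 h (0.00 with total-count scaling). They also changed for *Gata4* with the 1.5 h reference (-0.01 at 6 h, -0.02 at 10 h) and for *Cubn* at 24 h (0.07 with total-count scaling, 0.49 with the 1.5 h reference). TMM over O4AID alone and the 1.5 h reference were chosen after seeing the data. Apart from the added CPM, which shrinks ratios of low genes, the filters, which change the genes tested, and the left-out libraries, the cause was not tested.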

Other observations

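The nearest relatives of the members in their gene families were read as a further group. In CreER at 36 h, 3 of 9 tested rose (19.4% of all genes) and 1 fell (17.2%). The GATA factors of the blood and trophoblast lineages, *Gata2* (log2 change 1.69, adjusted p 1.72e-12 by edgeR), *Gata1* (1.56, adjusted p 9.31e-08) and *Gata3* (0.98, adjusted p 8.23e-05), rose alongside *Gata6*, while *Gata5* had at most 1 count in an untreated library and was not tested. In O4AID at 24 h, 3 of 8 tested relatives were called higher (9.34% of all genes) and 1 lower (6.62%). The higher ones were the same 3 GATA genes, at 3.01 for *Gata2*, 2.86 for *Gata1* and 1.34 for *Gata3*. *Dab1*, the neuronal relative of *Dab2*, went the other way in CreER, with -1.18 (adjusted p 7.87e-10), and stood at 13.5 and 12.5 CPM in untreated CreER against 0.135 in untreated O4AID. The forkhead relatives *Foxa1* (-0.07) and *Foxa3* (0.09) did not pass in CreER.

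Other primitive endoderm genes outside the members also stood apart between the untreated lines. *Srgn*, which encodes the proteoglycan serglycin, was at 0.0787 and 0.066 CPM in CreER and 14.7 CPM in O4AID. *Lrp2* was at 302 and 328 CPM in CreER and 11.2 CPM in O4AID. These levels rest on 2 CreER libraries and 1 O4AID library and were not tested.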
